A study of Homo sapiens with 18 samples.

Results

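The leucine tRNA genes with the anticodon CAA (tRNA-Leu-CAA) are 5 of the 180 tRNA genes in the mismatch table of an m1A-MAP-seq experiment, and they hold 27 of its 725 adenosine sites. They were taken by name, as every site whose gene name begins with it. N1-methyladenosine (m1A) is an adenosine with a methyl group on the base-pairing face, at which reverse transcriptase stops or inserts a wrong base. The small RNA came from WPMY-1, an immortalised myofibroblast line of human prostate stroma, and was sequenced as input and after immunoprecipitation (IP) with an m1A antibody. The IP RNA was divided, and part of it was treated with the demethylase AlkB. The cells were labelled TRMT61A wildtype and carried a vector, or were labelled TRMT61A knockdown and carried an shRNA (sh61A). Each of the 6 groups, input, IP without AlkB (AlkB-) and IP with AlkB (AlkB+) of vector and of sh61A cells, had 3 libraries. All groups come from the same line, and the table holds tRNA sites only, so neither the line's markers nor the TRMT61A mRNA were analysed here. The labels do not say whether libraries of a group came from separate cultures, so every p-value rests on a spread between libraries that could be technical only.

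Leu-CAA tRNAs read the leucine codon UUG. In human cells most of their genes carry a short intron just after the anticodon, which the tRNA splicing endonuclease cuts out of the precursor before a ligase joins the exons, and like all leucine tRNAs they have a long variable arm between the anticodon stem and the T arm. TRMT61A is the catalytic subunit and TRMT6 the partner of the enzyme that makes m1A at position 58 of the T loop, a modification known to stabilise the fold of tRNAs and, in yeast, to protect the initiator tRNA from decay.

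The gene sequences are shown because they decide what can be measured in each gene. They were copied from the authors' deposited table (build hg38), with the anticodon and the adenosine of position 58 in capitals.
Leu-CAA-1-1: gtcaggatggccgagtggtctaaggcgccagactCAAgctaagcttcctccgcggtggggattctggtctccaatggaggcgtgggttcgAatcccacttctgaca
Leu-CAA-2-1: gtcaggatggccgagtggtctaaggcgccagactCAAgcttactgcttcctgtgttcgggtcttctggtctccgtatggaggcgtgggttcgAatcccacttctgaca
Leu-CAA-3-1: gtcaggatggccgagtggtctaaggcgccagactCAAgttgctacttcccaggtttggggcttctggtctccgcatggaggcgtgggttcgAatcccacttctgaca
Leu-CAA-4-1: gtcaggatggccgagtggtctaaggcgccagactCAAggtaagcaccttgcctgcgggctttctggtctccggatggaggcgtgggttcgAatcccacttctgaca
Leu-CAA-6-1: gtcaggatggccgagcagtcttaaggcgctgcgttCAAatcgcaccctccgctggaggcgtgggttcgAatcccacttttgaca

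RefSeq places a tRNA gene at the coordinates of each of the 5. Leu-CAA-1-1 (TRL-CAA1-1) lies at chr6:28896223-28896328, Leu-CAA-2-1 at chr6:27605638-27605745 and Leu-CAA-3-1 at chr6:27602569-27602675, all on the minus strand. Leu-CAA-4-1 lies at chr1:248873855-248873960 on the plus strand and Leu-CAA-6-1 at chr1:161611946-161612029 on the minus strand. Leu-CAA-1-1, 2-1, 3-1 and 4-1 are 106, 108, 107 and 106 nucleotides long and share their first 38 and last 33 bases. The bases in which they differ begin at nucleotide 39, right behind the anticodon at 35 to 37, and run for 23, 24, 23 and 22 nucleotides where the intron lies. No intron bounds are given in the sources used here. Leu-CAA-6-1, at 84 nucleotides, has no such stretch, so the intron is a feature of 4 of the 5 genes.

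The listed sites of the 4 longer genes lay almost wholly in the 3′ exon. The stretch that holds the intron has 3, 1, 2 and 3 adenosines in Leu-CAA-1-1, 2-1, 3-1 and 4-1, and the table lists none of them, so precursor reads could not be counted. Each of the 4 genes also has 9 adenosines up to the anticodon, of which the table lists 1, A7 of Leu-CAA-3-1, with 1 read in sh61A input 1 and 1 mismatched read in vector AlkB- 2. In the 3′ exon all 8 adenosines of Leu-CAA-1-1 and all 7 of Leu-CAA-4-1 were listed, against 5 of 7 in Leu-CAA-2-1 and 5 of 7 in Leu-CAA-3-1, which lack the sites of the variable arm. The rule by which the authors listed sites is not given in the sources used here. Leu-CAA-6-1 had 1 listed site, A75, with 0 to 7 reads a library, and enters no test.

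The same 5 adenosines near the 3′ end are listed in all 4 intron-containing genes. They are positions 58, 59, 64, 71 and 73 of the tRNA, which lie 15, 14, 9, 2 and 0 nucleotides before the 3′ end, and are the capitals in the last 27 bases that these genes share.
Shared 3′ end of the 4 genes: gcgtgggttcgAAtcccActtctgAcA
The variable-arm parts, between the intron and the T arm, differ at a few letters, and a read of a spliced tRNA must reach them before it can be told apart by gene.
Leu-CAA-1-1, variable arm: ctggtctccaatgga
Leu-CAA-2-1, variable arm: ctggtctccgtatgga
Leu-CAA-3-1, variable arm: ctggtctccgcatgga
Leu-CAA-4-1, variable arm: ctggtctccggatgga

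Reads that end inside the shared bases fit all 4 genes alike, and the 4 counts were near-equal. In vector AlkB- 1 the 4 genes had 4304 to 4587 reads at position 71, and across the 18 libraries a chi-square over the 4 genes, divided by its degrees of freedom, ran from 0.171 to 3.46. The 4 genes are therefore not independent measurements, and their values are given summed where possible. The table also names 2 loci under Leu-CAA-1-1.

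Over the whole table, an input library had 225301 to 307981 reads summed over sites, and an IP library 115580 to 890428. Leu-CAA reads at the 3′ end, summed over the 4 genes, numbered 656 to 1911 in input, 2666 to 18401 in AlkB- and 641 to 8104 in AlkB+ libraries. Site counts in the table stop at 8015 reads, while the highest Leu-CAA site had 5737. 12 other genes reached at least 7500 3′-end reads in some library, so shares of all tRNA reads may be too high where those genes were capped. Genes at that level numbered 0 in each input library, 2, 6 and 1 in vector AlkB-, and 3, 0 and 0 in sh61A AlkB-. They numbered 0 in each vector AlkB+ library and 5, 0 and 0 in sh61A AlkB+. The cap may thus raise IP shares over input shares.

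Leu-CAA tRNAs held a much larger share of the tRNA reads after RNA was pulled down with the m1A antibody. The share is the 3′-end reads of the 4 genes as a percentage of the 3′-end reads of all tRNA genes. In vector cells it was 3.67%, 2.75% and 2.80% in the input libraries and 16.0%, 11.5% and 15.6% in the AlkB- libraries. In sh61A cells it was 2.50%, 2.30% and 2.49% in input and 12.5%, 9.72% and 16.5% in AlkB-. The means were 4.68-fold higher in vector and 5.33-fold higher in sh61A cells, and no AlkB- library overlapped an input library. Without the 12 genes near the read ceiling, mean shares in input and AlkB- were 6.61% and 28.5% in vector cells. In sh61A cells they were 5.12% and 24.8%. Among 32 anticodon families, Leu-CAA ranked 6 to 7 in input and 2 to 3 in AlkB-.

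**Figure D1:**
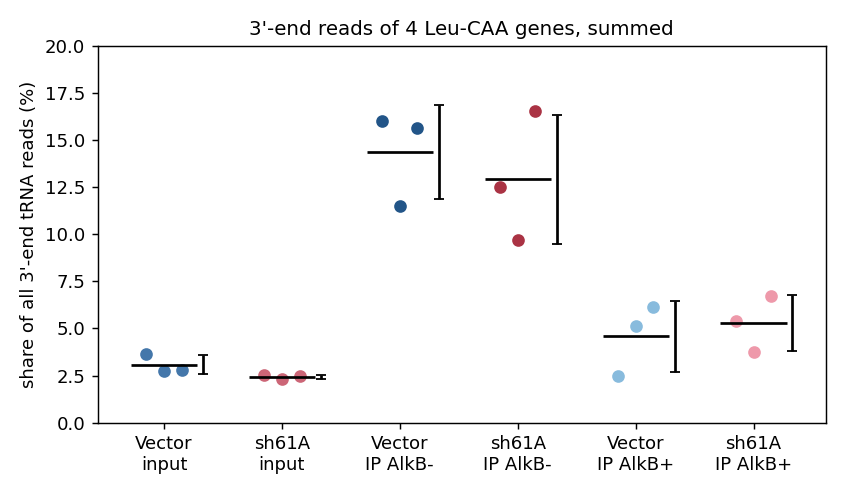
Share of all 3′-end tRNA reads held by the 4 intron-containing Leu-CAA genes (percent), by group. Points are libraries, horizontal lines are group means, and the bars beside them span 1 SD to each side (n = 3). Every AlkB- library lies above every other library of its cells, and in input all 3 sh61A libraries, at 2.30% to 2.50%, lie below the vector libraries.

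The IP gain of single genes passed the test in vector cells. With edgeR's quasi-likelihood test and the replicate number as a block, 4 of 4 genes had more 3′-end reads in AlkB- than in input, where 8 of 78 tRNA genes (10.3%) were called higher. Those 8 include the 4 Leu-CAA genes, which share their reads and so are not 4 separate results. They also include 2 of 6 genes of other leucine families. The log2 fold changes ran from 1.98 (SE 0.61, edgeR adjusted p = 0.0240) in Leu-CAA-2-1 to 2.14 (SE 0.61, edgeR adjusted p = 0.0212) in Leu-CAA-4-1. The median over the 4 genes was 2.06, and over all tested genes -0.26. This call was lost for all 4 without replicate 1 or replicate 2, with no filter on low counts, and without the 12 genes near the read ceiling. In sh61A cells the log2 fold changes were 2.29 to 2.57 with edgeR adjusted p from 0.0668 to 0.0861, so none of the 4 passed, where 4 of 73 genes (5.48%) did. All 4 passed with DESeq2, with no TMM, with no filter or with no replicate block. All 4 genes had groups that did not overlap in that comparison, as had 35.6% of all genes in the same direction. The difference between both kinds of cells was not tested.

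With AlkB the share lay nearer to the input level in both kinds of cells, but no gene passed edgeR's test. DESeq2 called all 4 in vector cells, and edgeR called all 4 in sh61A cells without the 12 genes near the read ceiling. The vector AlkB+ libraries held 2.47%, 5.13% and 6.12%, and the sh61A AlkB+ libraries 5.38%, 3.77% and 6.74%, each below every AlkB- library of the same cells. Means were 3.15-fold lower than in AlkB- in vector and 2.44-fold lower in sh61A cells. The single genes had log2 fold changes of -1.51 to -1.68 in vector cells (edgeR adjusted p from 0.0810 to 0.0990, 0 of 4 called against 12.3% of 73 genes in either direction and 1.37% lower). They had -1.16 to -1.29 in sh61A cells (edgeR adjusted p = 0.321 for each, 0 of 4 called and 0 of 75 genes called). Groups of the 4 genes did not overlap in either comparison, as held in the lower direction for 13.7% and 21.3% of all genes.

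In input RNA, knockdown cells had fewer Leu-CAA reads. The share was 3.08% ± 0.514 in vector and 2.43% ± 0.115 in sh61A cells (SD, n = 3), a ratio of 0.790, and the highest sh61A library, at 2.50%, was below the lowest vector library, at 2.75%. Leu-CAA-2-1 held 0.908%, 0.764% and 0.701% in vector and 0.595%, 0.561% and 0.542% in sh61A input, a log2 fold change of -0.62 (SE 0.11, edgeR adjusted p = 8.75e-07). Leu-CAA-1-1 fell by 0.58 on the log2 scale (SE 0.11, edgeR adjusted p = 3.48e-06) and Leu-CAA-3-1 fell by 0.49 (SE 0.11, edgeR adjusted p = 1.48e-04). Leu-CAA-4-1 fell by 0.27 (SE 0.11, edgeR adjusted p = 0.0379), but its libraries overlapped, from 0.582% to 0.965% in vector and from 0.617% to 0.724% in sh61A. Its call was lost without vector input 1, where the log2 change was -0.03, and without sh61A input 1 or 2.

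A fall of this kind was not rare in the table. Of 73 genes, 27 (37.0%) were called in input, 15 of them (20.5%) lower, the 4 Leu-CAA genes included. In 9 genes (12.3%) the sh61A libraries lay wholly below the vector libraries, and 3 of these are Leu-CAA genes. Since the 4 genes share their reads, their falls are not separate results, and Leu-CAA-4-1 is not set apart. The median log2 change was -0.53 over the 4 Leu-CAA genes and 0.07 over all genes. Of 5 genes of other leucine families, 2 were called higher and 2 lower, with Leu-CAG-1-1 at -0.22 and Leu-AAG-2-3 at 0.77. In the serine families, which also have a long variable arm, 1 of 8 was called higher and none lower. Of Tyr-GTA, Ile-TAT and Arg-TCT, the other families with introns in human genes, only Tyr-GTA had genes with enough reads for this test, and 6 of its 7 were called lower, with a median of -0.26. A share in bulk RNA cannot tell fewer molecules in each cell from fewer cells that hold them, nor a fall of Leu-CAA from a rise of the other tRNAs.

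In the IP libraries no Leu-CAA gene passed the test for knockdown. Between sh61A and vector cells the 4 genes differed by -0.21 to -0.26 in AlkB- (edgeR adjusted p = 0.984 for each, 0 of 68 genes called, 0%) and by 0.13 to 0.27 in AlkB+ (edgeR adjusted p = 0.963 for each, 0 of 4 called against 1.41% of 71 genes). The standard errors were 0.56 to 0.66, so a change of the size seen in input was not detectable in the IP.

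Read counts of Leu-CAA tRNAs dropped sharply between positions 59 and 58 in input RNA. In the plot of reads along the 3′ part, input counts were level from position 73 to position 64, stood at 81.2% to 84.2% of position 64 at position 59 in vector libraries, and then dropped over a single nucleotide. Reads at position 58 were 26.5%, 30.4% and 35.7% of those at position 59 in vector input, and 31.8%, 42.0% and 42.9% in sh61A input. In vector AlkB- and sh61A AlkB- libraries position 58 kept 89.3% to 100% of the reads at position 59.

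**Figure D2:**
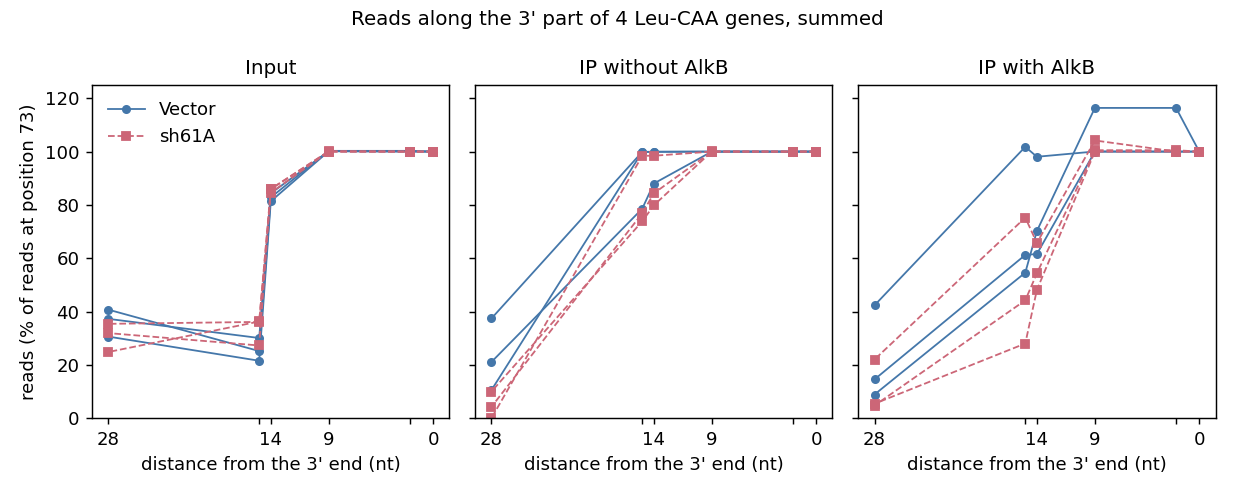
Reads along the 3′ part of the 4 genes, summed, as a percentage of the reads at position 73, against the distance from the 3′ end (nucleotides). Each line is a library, and the point 28 nucleotides away is the variable arm of Leu-CAA-1-1 and Leu-CAA-4-1. In input all 6 libraries drop between distances 14 and 15, which are positions 59 and 58.

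Read-through of position 58, the reads there over the median of reads at the sites up to 8 nucleotides from the 3′ end, puts this on 1 scale. Summed over the 4 genes it was 21.6%, 25.1% and 30.1% in vector input and 27.3%, 36.1% and 36.3% in sh61A input. The means of 25.6% ± 4.28 and 33.2% ± 5.15 (SD, n = 3) differed by 7.64 percentage points, and the groups overlapped, since the lowest sh61A library was below the highest vector library. All 4 genes had a higher mean in sh61A input. Leu-CAA-4-1 had 22.7%, 23.5% and 26.4% in vector and 29.2%, 38.7% and 36.1% in sh61A input, with no overlap and a log2 change of 0.51 (SE 0.14, limma adjusted p = 0.0431). The other genes had log2 changes of 0.30 to 0.37 with limma adjusted p from 0.239 to 0.294. The table called 16 of 52 tRNAs (30.8%), all higher, so 1 of 4 is near its background. Of the 52 tRNAs, 27 (51.9%) had sh61A libraries wholly above the vector libraries, against 1 of the 4 Leu-CAA genes. Leaving out any of the 3 vector input libraries, or sh61A input 2 or 3, ended the call of Leu-CAA-4-1. Since the 4 genes share their reads, the call does not set Leu-CAA-4-1 apart from the other 3.

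Leu-CAA had a higher read-through in vector input than the median tRNA, and a log2 change near the median. The median of the vector input means was 25.6% over the 4 genes and 13.9% over all 52 tRNAs, and the median log2 change was 0.36 against 0.44. Other leucine tRNAs had a median change of 0.05, which lies between 2 rises and 2 falls. Leu-CAG-1-1 was called at 0.54 (14.5% in vector and 21.1% in sh61A input, limma adjusted p = 0.0431). Leu-CAG-2-1 had 0.48 (27.5% and 37.5%) and was not called. Leu-AAG-2-3 and Leu-AAG-4-1 had -0.80 and -0.39, also not called. Serine tRNAs had 1.03 with 0 of 4 called, and Tyr-GTA tRNAs had 1.08 with 5 of 6 called. No Ile-TAT or Arg-TCT tRNA was tested. The Tyr-GTA tRNAs had a median of 1.70% in vector input.

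In the IP without AlkB, a far larger part of the Leu-CAA reads covered position 58. Vector AlkB- libraries had a read-through of 78.6%, 99.9% and 99.9%, and sh61A AlkB- libraries 98.4%, 73.9% and 76.8%. From input to AlkB-, all 4 genes rose in vector cells, by log2 ratios of 1.79 to 1.93 (limma adjusted p from 0.00496 to 0.00760), where 24 of 45 tRNAs (53.3%) were called. All 4 also rose in sh61A cells, by 1.24 to 1.41 (limma adjusted p from 0.0256 to 0.0465), where 20 of 44 (45.5%) were called. Medians were 1.87 for Leu-CAA against 1.77 for all tRNAs in vector cells, and 1.32 against 1.08 in sh61A cells. All calls were lost without replicate 3 in vector cells, and without replicate 2 or 3 in sh61A cells, where the log2 ratios stayed at 1.31 or more. A read that covers position 58 need not extend further upstream. In AlkB- libraries, reads at the variable arm of Leu-CAA-1-1 and Leu-CAA-4-1 were 0.0331% to 37.5% of those at position 58.

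Within the IP libraries no Leu-CAA gene passed the test of read-through, for AlkB or for knockdown. Vector AlkB+ libraries had 50.5%, 61.2% and 102%, and sh61A AlkB+ libraries 44.1%, 75.3% and 28%, a wider spread than in any other group. From AlkB- to AlkB+, log2 ratios of the 4 genes were -0.23 to -0.58 in vector cells (0 of 4 called against 8.89% of 45 tRNAs) and -0.79 to -0.97 in sh61A cells (0 of 4 called and 0 of 39 called). Between sh61A and vector cells they were -0.15 to -0.17 in AlkB- and -0.48 to -0.74 in AlkB+, with 0 of 44 tRNAs called in either. Read-through also counts reads lost between the 3′ end and position 59. From AlkB- to AlkB+, mean reads at position 59 over position 64 went from 96.0% to 73.3% in vector cells. In sh61A cells they went from 87.5% to 55.1%. Mean reads at position 58 over position 59 went from 96.4% to 93.7% in vector and from 94.5% to 84.7% in sh61A cells. In vector cells 4 of 6 Tyr-GTA tRNAs were called higher with AlkB, with a median log2 ratio of 3.67 over the 6.

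**Figure D3:**
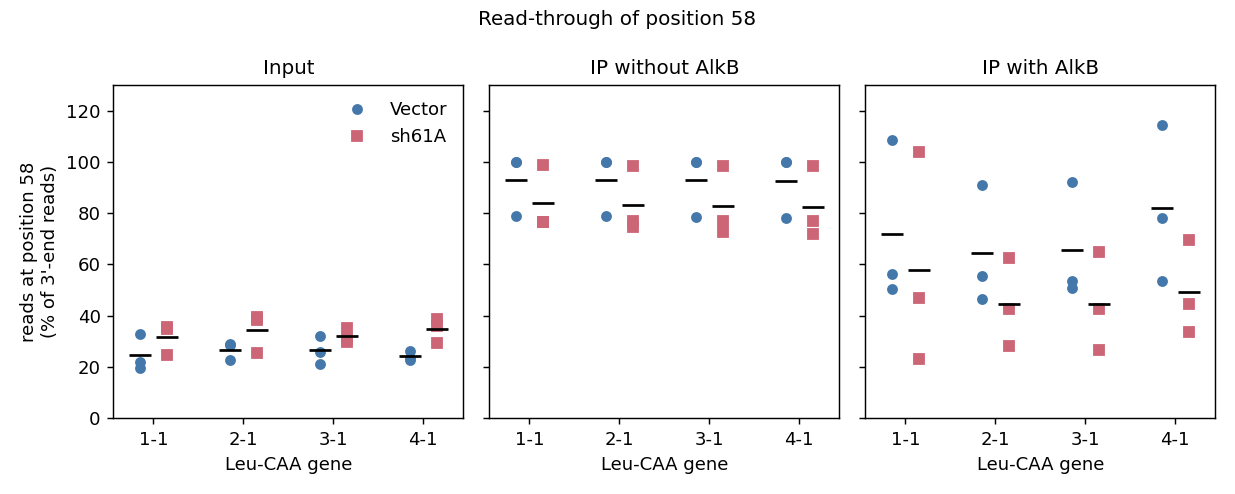
Read-through of position 58 (reads at position 58 as a percentage of 3′-end reads) in each intron-containing Leu-CAA gene. Points are libraries and black lines are group means (n = 3). Input values lie between 19.6% and 39.6%, while AlkB- values lie between 71.8% and 99.9%.

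Upstream of position 58, vector input held more Leu-CAA reads than at position 58 itself. The variable-arm site 28 nucleotides before the 3′ end is listed in Leu-CAA-1-1 and Leu-CAA-4-1 only. Both together had 585, 443 and 467 reads there in vector input, while all 4 genes together had 412, 274 and 377 reads at position 58, which makes 142%, 162% and 124%. So at least 29.6%, 38.1% and 19.3% of the variable-arm reads did not cover position 58. In sh61A input the counts were 227, 245 and 163 against 194, 250 and 238, which makes 117%, 98.0% and 68.5%, all below the vector libraries. How often this ratio separated in other tRNAs was not computed, so the separation has no background. As a share of the reads at position 73, the variable-arm reads overlapped. They made 30.6%, 40.7% and 37.3% in vector input and 31.9%, 35.4% and 24.8% in sh61A input. With 3 libraries a group, an exact permutation test of a single value cannot give less than p = 0.1, and none was run.

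Other tRNA genes also had more reads upstream than at position 58 in input RNA. In the IP libraries the variable arm had 0.0331% to 37.5% of the reads at position 58 without AlkB and 10.8% to 41.6% with it. In each library, the highest count among listed sites 26 to 34 nucleotides from the 3′ end was set against position 58, which favours the upstream side. Genes needed at least 60 reads at both together, summed over the 3 libraries of a group. In input 7 tRNA genes had them, Leu-CAA-1-1 and Leu-CAA-4-1 among them. Gly-CCC-1-1 entered with 1 read at position 58 and 571 upstream in vector input. In all 7 of these genes the upstream count was above that at the gene's own position 58 in all 3 vector input and all 3 sh61A input libraries. None did so in all 3 libraries of vector AlkB- (7 genes), sh61A AlkB- (6 genes) or vector AlkB+ (8 genes), while 3 of 8 did in sh61A AlkB+. For Leu-CAA this differs from the ratio to the position-58 reads of all 4 genes. That ratio was 98.0% and 68.5% in sh61A input 2 and 3.

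**Figure D4:**
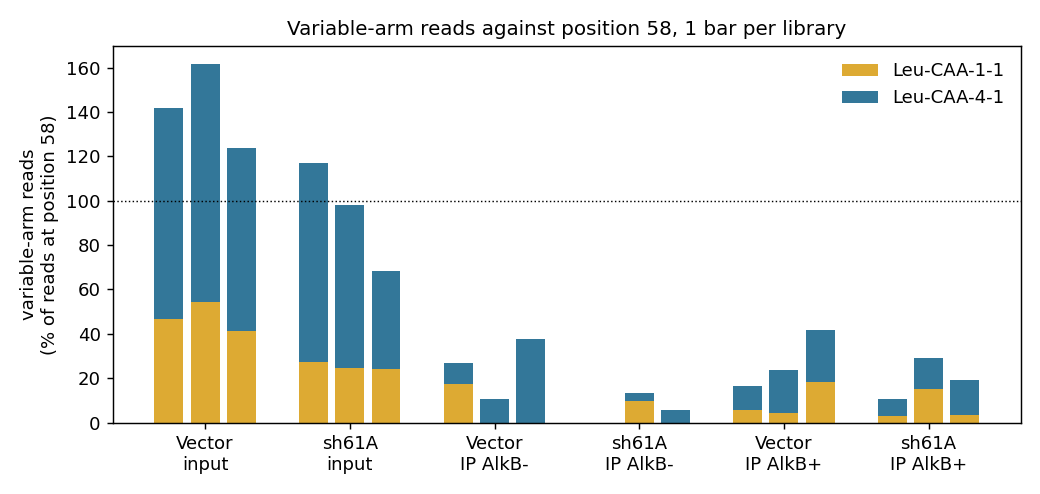
Reads at the variable-arm site of Leu-CAA-1-1 and Leu-CAA-4-1 as a percentage of the reads at position 58 of all 4 genes, with a bar per library. The dotted line at 100% marks equal counts. Vector input bars reach 124% to 162%, sh61A input bars 68.5% to 117%, and no IP bar passes 41.6%.

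Reads at the variable-arm site were split unevenly between Leu-CAA-1-1 and Leu-CAA-4-1. This site, 28 nucleotides from the 3′ end, still lies in the 33 shared bases, so a read that covers it need not tell the genes apart. The first base that differs is A73 of Leu-CAA-1-1, which had 184, 135 and 143 reads in vector input, against 192, 149 and 156 at the variable-arm site of that gene. Leu-CAA-1-1 held 32.8% to 33.6% of the variable-arm reads of both genes in vector input and 23.4% to 35.6% in sh61A input, so that Leu-CAA-4-1 had the larger part in all 6 libraries. In the AlkB- libraries the split changed from library to library. Leu-CAA-1-1 had 2406, 1 and 3 reads in the 3 vector libraries, and Leu-CAA-4-1 had 1356, 1514 and 5737. In sh61A AlkB- the share of Leu-CAA-1-1 was 0%, 70.4% and 0%. The values are those of single libraries and differed more within a group than between groups.

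Mismatches at Leu-CAA adenosines were rare throughout, and no site changed past the threshold in any comparison. Summed over the 4 genes, position 58 mismatched in 0.485%, 0.730% and 1.33% of reads in vector input, which rests on 2, 2 and 5 mismatched reads. The mean was 0.847% ± 0.433 in vector and 0.445% ± 0.0617 in sh61A input (SD, n = 3), and the groups overlapped. In the deep AlkB- libraries it was 0.611% ± 0.0386 in vector, from 266 mismatched of 43642 reads, and 0.508% ± 0.181 in sh61A cells, from 190 of 32534, again with overlap. With AlkB it was 0%, 0.318% and 0.684% in vector and 0.555% ± 0.204 in sh61A cells (SD, n = 3).

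Position 59, the next adenosine, mismatched at a similar level in vector input and at a lower one in vector AlkB-. It had 0.848% ± 0.188 in vector input and 1.13% ± 0.208 in sh61A input, and 0.331% ± 0.0599 and 0.466% ± 0.0555 in AlkB- (SD, n = 3 each). Position 58 was above position 59 in all 3 vector AlkB- libraries and in 8 of all 18. In vector AlkB- the means were 0.410% at position 64, above position 59 in all 3 libraries, 0.180% at position 71 and 0.101% at position 73, and position 73 was the lowest of the 5 in 14 of 18 libraries.

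Between vector and sh61A cells, the summed rates of 5 positions in 3 kinds of RNA give 15 comparisons, of which 11 overlapped. The sh61A libraries lay wholly above the vector libraries at position 59 in AlkB- (0.409% to 0.519% against 0.265% to 0.382%) and in AlkB+ (0.917% ± 0.196 against 0.541% ± 0.137), and at position 73 in AlkB+ (0.252% against 0.0569%). They lay wholly below at position 64 in input (0.487% against 0.793%). None of these is backed by a called site, and 0% of all tested sites were called. How often the mismatch rates of other tRNAs separated in this way was not computed, so these separations have no background.

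**Figure D5:**
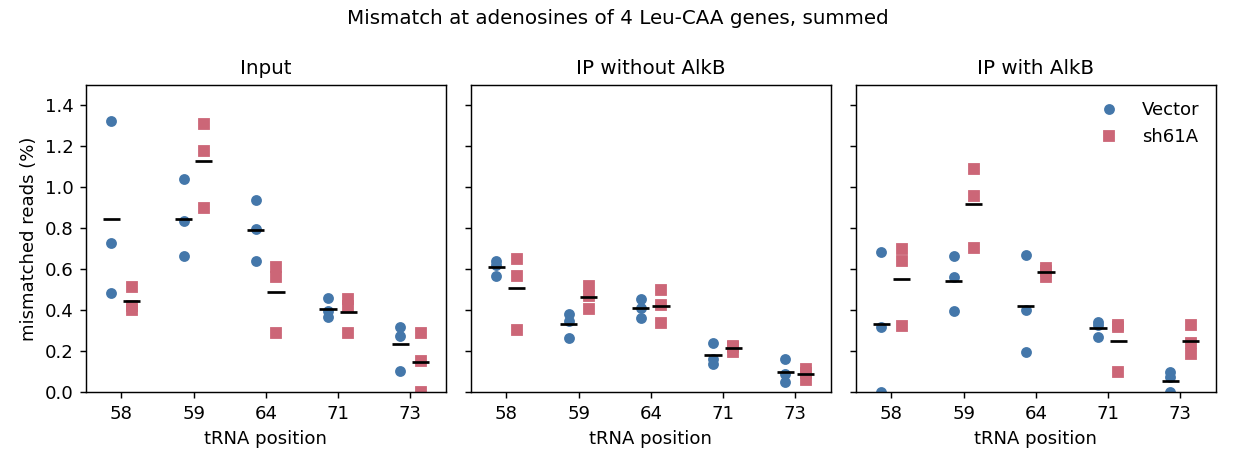
Mismatched reads (percent of reads) at the 5 adenosines shared by the 4 intron-containing Leu-CAA genes, summed. Points are libraries and black lines are group means (n = 3), by tRNA position. All values lie below 1.5%, and position 73 is the lowest of the 5 in 14 of 18 libraries.

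Site by site, a quasi-binomial model of mismatched over total reads was fitted at every site that every library of a comparison covered with 20 reads or more. Knockdown against vector covered 25 Leu-CAA sites of 428 in input, 20 of 255 in AlkB- and 21 of 372 in AlkB+. AlkB+ against AlkB- covered 21 of 293 in vector and 20 of 271 in sh61A cells, and AlkB- against input covered 22 of 270 and 20 of 247. The model with Benjamini-Hochberg adjustment called 0 of all sites in each of the 7 comparisons (0%). At an unadjusted p under 0.05 it had 1, 3, 3, 1, 0, 7 and 1 sites in that order, none of them in Leu-CAA. In every comparison that is fewer than this threshold would give if no site changed. With few mismatched reads and the dispersion held at 1 or above, the test thus calls too little. Its 0 calls do not show that mismatch rates were unchanged. A model with the dispersion moderated across sites also called 0.

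The sites at position 58 show how few reads lie behind the input rates. Leu-CAA-2-1 A93 had 3 mismatched of 284 vector input reads and 0 of 165 sh61A reads, which allows up to 1.82%. Leu-CAA-4-1 A91 went the other way, with 0 of 248 reads in vector, which allows up to 1.21%, and 2 of 200 in sh61A input. In vector AlkB- the 4 genes had 0.594% ± 0.0198, 0.736% ± 0.184, 0.513% ± 0.0753 and 0.603% ± 0.182 (SD, n = 3; Leu-CAA-1-1 A91, 2-1 A93, 3-1 A92 and 4-1 A91), from 11112, 10685, 10864 and 10981 reads. In the authors' deposited table, the untreated minus treated rate at these sites was above 0 in 4 of 6 replicates for Leu-CAA-1-1, 2-1 and 4-1 and in 3 of 6 for Leu-CAA-3-1, and reached at most 0.942 percentage points.

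The Leu-CAA sites with the smallest unadjusted p were not the same from comparison to comparison. In input they were both at the same variable-arm position and moved in opposite directions in sh61A cells. Leu-CAA-4-1 A78 went from 0.904% to 0% and Leu-CAA-1-1 A78 from 0% to 1.17%. In AlkB- they were Leu-CAA-2-1 A99 (0.337% in vector, 0.454% in sh61A) and Leu-CAA-4-1 A92 (0.308% and 0.531%), and in AlkB+ Leu-CAA-3-1 A98 (0.272% and 0.612%) and Leu-CAA-3-1 A107 (0% and 0.232%).

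Treatment with AlkB gave no Leu-CAA site a called fall, and the sites with the smallest unadjusted p had higher means after it. In vector cells these were Leu-CAA-4-1 A104 (0.123% without and 0.435% with AlkB) and Leu-CAA-3-1 A93 (0.411% and 0.664%). In sh61A cells they were Leu-CAA-1-1 A106 (0.0621% and 0.547%) and Leu-CAA-4-1 A92, which is position 59 (0.531% and 1.29%). From input to AlkB- they had lower means, at Leu-CAA-3-1 A98 (1.32% and 0.390%) and Leu-CAA-2-1 A99 (0.922% and 0.337%) in vector cells. In sh61A cells they were Leu-CAA-2-1 A94 (1.62% and 0.479%) and Leu-CAA-1-1 A92 (1.42% and 0.399%).

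Averaged over the 6 groups, the highest rates were at Leu-CAA-1-1 A73 in the variable arm (2.14%), Leu-CAA-2-1 A94 (0.737%), Leu-CAA-4-1 A92 (0.733%), Leu-CAA-1-1 A92 (0.678%) and Leu-CAA-4-1 A74 (0.665%). The value of Leu-CAA-1-1 A73 rests on sh61A AlkB+ 3, a library with 3 reads at the site. Among the other 4 sites, 3 are position 59. In Leu-CAA-4-1 A74, in the variable arm, 70 of 8606 vector AlkB- reads mismatched, a mean of 0.770% ± 0.0969 (SD, n = 3), against 0.603% ± 0.182 at position 58 of the same gene (A91), with overlapping libraries.

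Of 30 other anticodon families, Leu-CAG had the 3′-end level most like that of Leu-CAA over the 18 libraries, with a Pearson r of 0.93 between log2 CPM. Ala-CGC (0.84) and Ala-TGC (0.80) followed. All points share libraries, depth and the 6 groups. Between deviations from the group means the same correlations were 0.35, 0.20 and -0.19, so most of the likeness lay between groups. Leu-CAG held 2.17% to 2.41% of 3′-end reads in vector input and 9.28% to 10.6% in vector AlkB-.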

How the data were processed

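The deposited values are, per the file headers, the raw count of covering reads and the raw count of mismatched reads of each site and library, and the mismatch rate as a fraction. That fraction equalled the quotient of the counts within 4.93e-13. The authors' fold column, the ratio of the untreated to the treated rate per the file headers, was not used, and their difference column was copied only. The submitters' processing notes name SAMtools 1.3.1, Bowtie2 2.2.4, cutadapt 1.9.3 and hg38, without parameters or the origin of the read ceiling. 5 repeated lines were counted once, and 19 lines are not analysed here.

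Members and comparison lists were chosen with earlier results of these data known. Named were every Leu-CAA gene, the position-58 sites, the 2 sites of smallest p in each comparison, the 5 highest rates and the 3 families most alike. Mismatches were tested in R 4.3.3 by a two-sided quasi-binomial F test with the dispersion held at 1 or above. Read-through was tested with limma 3.58.1 on log2 ratios (0.5 reads added to each count, at least 20 3′-end reads per library), and 3′-end counts with edgeR 4.0.16 (TMM, filterByExpr). P-values were adjusted by Benjamini-Hochberg over all sites or tRNAs tested, at 0.05. Where IP was compared with input, or AlkB+ with AlkB-, the replicate number was a block, as the protocol divides these from the same RNA. Same-numbered libraries did not deviate together. In no pair of groups were all 3 correlations above 0.1, and between vector input and AlkB- they ran from -0.04 to 0.28. DESeq2 1.42.0 was an alternative. Upper limits for 0 mismatches use 3 counts and cover counting error only. On data simulated for the input comparison (428 sites), the mismatch test recovered 65% of sites changed 20-fold. The simulated libraries differed by counting error only, so recovery in libraries that differ more may be lower.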

Additional observations from a re-analysis of the deposited data

How the results depend on the processing

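Counts of called Leu-CAA genes or sites changed as follows, and the cause was not tested. With the dispersion as estimated, mismatch calls went from 0 to 1 for knockdown in input, 2 for AlkB in vector, 2 for AlkB in knockdown, 1 for IP against input in vector and 4 in knockdown cells, and limma on logit rates gave 1 in input. For read-through, knockdown in input went from 1 call to 0 with the replicate block, and to 0 to 1 when a library was left out. IP against input gave 0 to 4 calls in vector and 0 to 4 in knockdown cells with a replicate left out. For 3′-end reads, DESeq2 called 4 genes for AlkB in vector cells. IP against input in vector cells went from 4 calls to 0 with no filter, to 0 without the 12 genes near the read ceiling and to 0 to 4 with a replicate left out. IP against input in knockdown cells went from 0 calls to 4 with no TMM, with DESeq2, with no filter and with no replicate block. Without the genes near the ceiling, AlkB in knockdown cells had 4 calls. That setting and the moderated dispersion were chosen after seeing the data. The other 211 of 236 values of these summaries kept within 1.5 times the count, or within 1 SD for pooled rates, and no result changed its direction. The share of reads at intron sites was not run, because no listed site lies there. Low counts limit the input values. The ceiling near 8015 reads bears on shares of all tRNA reads, while no Leu-CAA site reached it.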
